A study of Mus musculus with 6 samples.

Results

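Acetylation of histone H3 at lysine 27 (H3K27ac) was examined at 10 genes that respond to low oxygen or to vascular endothelial growth factor (VEGF) signalling: Hif1a, Epas1, Egln1, Egln3, Vegfa, Adm, Slc2a1, Bnip3, Ddit4 and Ankrd37. They were chosen by name, and are 10 of the 21938 protein-coding genes of the annotation. Every peak within 2.5 kb of one of their transcription start sites (TSS), or within the gene body and 20 kb on either side, was assigned to them. The mark was profiled by ChIP-seq in single whole retinas of wild-type mice, which were 3 months old at the first elevation. In the 4xIOP group (3 samples) the intraocular pressure of 1 eye had been raised to 30 mmHg for 1 h, biweekly and 4 times in all. The control group (3 samples) consisted of untreated contralateral eyes, so both groups came from animals that had undergone the procedure. All retinas were collected on day 2 after the 4th elevation. The general treatment text of the series also names dasatinib and a vehicle, but no label of these 6 samples names a drug. Which eyes came from the same animal is not labelled.

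Each sample had 1 list of called peaks, and the lists were the replicates. The control lists held 21893, 19913 and 36509 peaks (replicates 1 to 3) and the 4xIOP lists 20338, 20804 and 16195, so that control 3 stood apart. The mean background was 87.4 to 173 fragments per 10000 bp. The name that a list itself carries was that of the other group in 4 of the 6 lists (control 1 and 2, 4xIOP 1 and 2). Groups were taken from the sample labels, and every direction below holds for the samples as labelled. Leaving out these 4 lists leaves control 3 against 4xIOP 3. The labelled tissue was checked against markers: 7 of 8 photoreceptor genes had a promoter peak in all 6 lists, whereas 0 of 5 endothelial and 0 of 5 microglial markers had one in any list. All 6 lists marked 1 of 5 bipolar cell and 1 of 5 Müller glia genes and 0 of 5 retinal ganglion cell genes. Of the pigment epithelium and lens markers 1 of 5 each was marked, in control 3 only.

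In cells with enough oxygen, the prolyl hydroxylases encoded by the Egln genes modify the alpha subunits of the hypoxia-inducible factors (HIF), which are then degraded. When oxygen is short the subunits accumulate, pair with a beta subunit and bind a short core motif, spelled ACGTG and more rarely GCGTG, near genes for glucose uptake, glycolysis, blood vessel growth and mitochondrial turnover. The retina is among the tissues with the highest oxygen consumption, and VEGF made in it acts on its vessels. H3K27ac lies at active promoters and enhancers, and its level does not measure transcription itself.

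Of the 10 genes, 9 have a RefSeq promoter entry. Among these, the promoter sequences with the most copies of the HIF core are those of Bnip3 (5 copies) and Ankrd37 (4 copies). They are shown with that of Slc2a1 (2 copies), the gene whose promoter was called in every control list and in no 4xIOP list. Each is the RefSeq window of 300 bases, 250 before to 50 after the TSS, on GRCm38 and on the strand of the gene. Capitals mark the core motif, read on either strand. The first form of the core is contained in the E-box (CACGTG), which other factors also bind. An E-box reads the same on both strands and counts as 2 copies, as 1 does at Bnip3. These windows are set by the TSS and not by the peaks. That of Slc2a1 ends where its called region begins (chr4:119108794). The copies at Bnip3 lie upstream of its region called in all 6 lists (chr7:138908873-138909498). The 300 bases around the summit of that region hold 0.
Bnip3 promoter, chr7:138909457-138909756 (− strand): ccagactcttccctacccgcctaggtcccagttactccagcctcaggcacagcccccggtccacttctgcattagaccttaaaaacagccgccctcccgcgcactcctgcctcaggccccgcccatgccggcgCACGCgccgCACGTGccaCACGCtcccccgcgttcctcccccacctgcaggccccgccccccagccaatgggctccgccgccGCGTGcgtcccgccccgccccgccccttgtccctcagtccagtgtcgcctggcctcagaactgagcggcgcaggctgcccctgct
Ankrd37 promoter, chr8:45999801-46000100 (− strand): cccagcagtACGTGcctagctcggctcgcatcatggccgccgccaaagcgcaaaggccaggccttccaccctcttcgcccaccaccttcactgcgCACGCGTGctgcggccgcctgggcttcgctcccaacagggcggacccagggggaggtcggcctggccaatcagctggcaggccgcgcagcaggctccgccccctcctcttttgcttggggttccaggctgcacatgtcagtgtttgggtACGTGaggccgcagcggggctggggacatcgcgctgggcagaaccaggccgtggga
Slc2a1 promoter, chr4:119108495-119108794 (+ strand): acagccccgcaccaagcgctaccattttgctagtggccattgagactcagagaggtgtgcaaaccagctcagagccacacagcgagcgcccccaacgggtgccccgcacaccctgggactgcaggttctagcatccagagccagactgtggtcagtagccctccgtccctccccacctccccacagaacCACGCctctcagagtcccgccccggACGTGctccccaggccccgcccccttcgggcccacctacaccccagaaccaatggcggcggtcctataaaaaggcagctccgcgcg
Of the 10 genes, 9 had a RefSeq window (Epas1 had no entry), and Vegfa had 2. The core was found in 9 of these 10 windows, against 43.8% of 32851 windows over all genes. The only RefSeq window without it was that of Vegfa at its annotated start. The members' RefSeq windows were also richer in G and C, with a median of 67.2% against 52.7%, and richer in CpG. At least 4 copies were found in 3.86% of all RefSeq windows and at least 5 in 1.66%. In the windows of the same length around the acetylated summits, the core was found in 6 of the 10 at the members' own promoters that every list called (60%), beside 59.0% of all such windows near a TSS. There the members' windows were poorer in G and C than all of these, with a median of 62.7% against 67.0%, and poorer in CpG. These matches describe the letters of the windows and do not show binding.

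Signal is given for each promoter as the number of fragments at the highest summit, divided by the number expected there from the mean background of the same list. Fold is the enrichment over the local background, as deposited. The median marked promoter of a list had a signal of 10.4 to 24.3. Promoters of 8, 8 and 9 of the 10 genes were marked in control 1, 2 and 3, and of 7, 7 and 8 in 4xIOP 1, 2 and 3. The means were 8.33 ± 0.577 and 7.33 ± 0.577 genes (SD, n = 3), a difference of 1 gene. This difference came from Slc2a1 (3 control lists and 0 4xIOP lists), since Adm (1 and 0) and Egln3 (0 and 1) offset each other. Of all protein-coding genes 48.6%, 46.2% and 56.9% were marked in the control lists and 47.4%, 45.7% and 44.6% in the 4xIOP lists, so that share was also lower on average in 4xIOP. Promoters of 7 of the 10 genes were marked in all 6 lists, compared with 39.5% of all protein-coding genes.

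**Figure D1:**
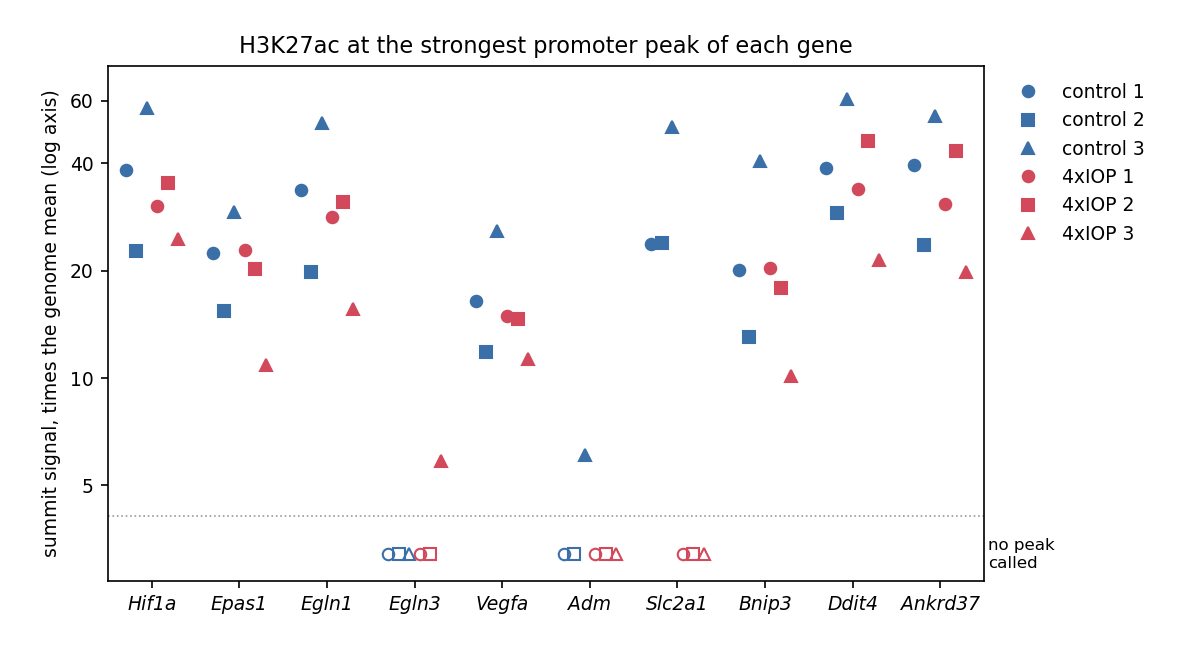
Summit signal of the strongest promoter peak of each gene in each list, as a multiple of the genome mean of that list, on a log axis. Blue symbols are control lists, red symbols 4xIOP lists, and open symbols below the dotted line are lists with no called peak. The groups overlap for the 7 genes with a peak in every list, control 3 is the highest list at each of them, and Slc2a1 has no called promoter peak in any 4xIOP list.

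The alpha subunits of HIF were described first. Hif1a (chr12:73901375-73947530, + strand) encodes HIF-1 alpha. Its promoter signal was 38.3, 22.8 and 57.1 in control 1, 2 and 3 and 30.3, 35.3 and 24.6 in 4xIOP 1, 2 and 3. All 4xIOP values lay between the lowest and the highest control value. The peaks were at the downstream one of its annotated starts, 6.53 kb into the gene, and the upstream start had none in any list. Epas1 (chr17:86753700-86833410, + strand) encodes HIF-2 alpha. Its promoter signal was 22.4, 15.4 and 29.2 in control and 22.9, 20.3 and 10.9 in 4xIOP. The lowest value was that of 4xIOP 3, and the groups overlapped. In 4xIOP 3 this peak had a −log10 q of 3.64, and at a minimum of 5 it was called in 2 of 3 4xIOP lists.

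The oxygen sensors differed from each other in whether they were marked. Egln1 (chr8:124908587-124949324, − strand) encodes PHD2, the main prolyl hydroxylase for HIF. The signal of its promoter was 33.8, 19.8 and 51.8 in control and 28.3, 31.1 and 15.6 in 4xIOP, with overlapping groups. Its summit lay upstream of the start in every list, at -303 to -373 bp. Egln3 (chr12:54178981-54203860, − strand) encodes PHD3, which is itself a target of HIF. It had a promoter peak in 4xIOP 3 only, with 15 fragments and a signal of 5.85, at the 4.57th percentile of the marked promoters of that list. No other list called a peak there. The −log10 q of this peak was 4.77, so at a minimum of 5 it was not called in any list.

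Of the 2 ligands, 1 was marked throughout. Vegfa (chr17:46016993-46032369, − strand) encodes the VEGF-A ligand. At its promoter the signal was 16.4, 11.8 and 25.9 in control and 14.9, 14.6 and 11.3 in 4xIOP. The values overlapped, and the highest was again that of control 3. Adm (chr7:110627661-110629820, + strand) encodes adrenomedullin, a vasodilator peptide. Its promoter was called in control 3 only, with 15 fragments and a signal of 6.08. The summit was 1248 bp downstream of the start, and the peak was not counted with promoters of 1 kb on either side. The list that called it was the one with the most peaks.

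Of the effector genes, Ddit4 and Ankrd37 had among the strongest promoters. Ddit4 (chr10:59949669-59951834, − strand) encodes REDD1, an inhibitor of mTORC1. Its promoter signal was 38.8, 29.0 and 60.8 in control and 33.8, 46.2 and 21.4 in 4xIOP. Bnip3 (chr7:138890836-138909519, − strand) encodes a mitochondrial receptor for mitophagy. The signal at its promoter was 20.1, 13.02 and 40.5 in control and 20.4, 17.9 and 10.1 in 4xIOP. In both genes the highest value was that of control 3, the lowest that of 4xIOP 3, and the groups overlapped. The acetylated part of the Bnip3 promoter was narrow in some lists of both groups, with 244 and 191 bp covered in 4xIOP 2 and 3 and 317 bp in control 2, against 882 to 1777 bp in the others. With at least 200 bp of overlap it was therefore called in 2 of 3 4xIOP lists. Ankrd37 (chr8:45996902-46005707, − strand) encodes an ankyrin repeat protein and is a target of HIF-1. Its promoter signal was 39.7, 23.7 and 54.3 in control and 30.8, 43.4 and 19.9 in 4xIOP. This promoter is shared, since Lrp2bp starts 559 bp away on the opposite strand, and the 2 genes cannot be told apart.

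The 7 promoters were compared between the groups. Control 3 had the highest signal at each of them, and the mean signals were not recomputed without it. The signal of all of them was lower on average in 4xIOP, by 0.31 to 0.51 on the log2 scale, but the median over all 8669 promoters marked in every list was also lower, by 0.27. Relative to that median, the difference was -0.03 for Hif1a, -0.04 for Ankrd37, -0.06 for Epas1, -0.07 for Vegfa and Ddit4, -0.17 for Egln1 and -0.23 for Bnip3. The exact two-sided permutation p of the log2 signal was 0.4 to 0.6 (n = 3 lists against 3, smallest possible 0.1). The ranks of fold within each list, turned into normal scores, were then tested with limma over all 8669 promoters. The score difference (4xIOP minus control) was 0.354 ± 0.397 for Hif1a, 0.159 ± 0.407 for Ankrd37, 0.0958 ± 0.353 for Bnip3 and 0.0646 ± 0.417 for Epas1 (SE). It was 0.0315 ± 0.37 for Egln1, -0.036 ± 0.389 for Vegfa and -0.0682 ± 0.401 for Ddit4. The groups overlapped at each of the 7 promoters. In 4.25% of all promoters every 4xIOP list ranked above every control list, and in 3.93% below. By limma with Benjamini-Hochberg adjustment, 0 of the 7 passed an adjusted p of 0.05 (the background was 0% of 8669 promoters in either direction). At an unadjusted p under 0.05 limma found 128 promoters higher and 142 lower (1.48% and 1.64%), none of them a member. With SE of 0.353 to 0.417 score units, differences of the size seen here were not detectable with 3 lists a group.

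The order of the promoters by signal was described within each list, as the percentile among its marked promoters. The mean over the 6 lists was 98.3 for Ddit4, 97.5 for Hif1a, 97.1 for Ankrd37, 93.1 for Egln1, 74.0 for Epas1, 70.7 for Bnip3 and 55.05 for Vegfa. Ankrd37 ranked above Egln1 in 6 of 6 lists, and Egln1 above Epas1 in 6 of 6, by 19.1 ± 10.2 points (SD). Neighbours that did not differ beyond their spread were Ddit4 and Hif1a (0.866 ± 1.83 points), Hif1a and Ankrd37 (0.328 ± 1.98), Epas1 and Bnip3 (3.24 ± 13.4) and Bnip3 and Vegfa (15.7 ± 16.3). The rank by fold was lower for each of the 7 (mean percentile 9.94 for Epas1 to 83.3 for Ankrd37). The difference was greatest for Ddit4, at the 98.3rd percentile by signal and the 17.3rd by fold. Fold divides by the local background, which was 9.64 times the genome mean at Ddit4, at the 98.6th percentile, and 4.45 times at Ankrd37, at the 87.6th.

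**Figure D2:**
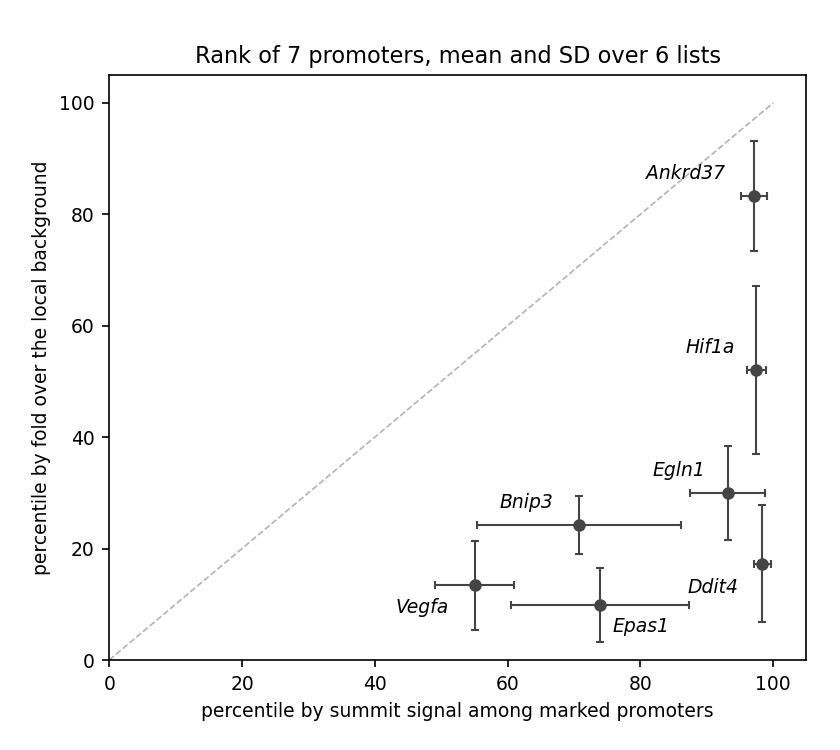
Mean percentile of 7 promoters among the marked promoters of a list, by summit signal (x axis) and by fold over the local background (y axis), with SD over the 6 lists as bars. The dashed line marks equal ranks. All 7 genes lie below it, Ankrd37 nearest to it and Ddit4 farthest.

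Slc2a1 (chr4:119108711-119137983, + strand) encodes GLUT1, the glucose transporter through which glucose enters the retina from the blood. Its promoter had a peak in each of the 3 control lists, whereas the 4xIOP lists had none. The peak held 52, 81 and 125 fragments in control 1, 2 and 3, with a signal of 23.7, 24.0 and 50.6. By fragments these were strong summits, at the 86.7th to 96.98th percentile. Their fold was 2.53, 3.74 and 3.63, because the local background was 6.20 to 13.6 times the genome mean. By fold they ranked low among the marked promoters of their lists, at the 0.769th, 17.5th and 7.29th percentile. The peaks were also narrow for promoters, with 242, 325 and 869 bp covered, at the 2.58th to 32.4th percentile. The merged region (chr4:119108794-119109662) covers the end of the first exon and the start of the first intron, and the summits were 224 to 270 bp downstream of the start. Among all protein-coding genes, 79 had this pattern (0.36%), and 0 had the reverse one (0%). Slc2a1 kept it at a −log10 q of at least 5, with equal numbers of the strongest peaks per list, with promoters of 1 kb on either side and with at least 200 bp of overlap. With equal numbers of peaks 29 genes had it, and 10 had the opposite. At Slc2a1 the pattern holds only for the groups as labelled: by the names that the lists carry, the promoter was called in 1 of the 3 lists named control and in 2 of the 3 named 4xIOP.

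A missing call is not a signal of 0, so the level that a call needed was computed from the background at the locus. In the first intron, 4 kb from the start, a second region (chr4:119112501-119112975) had a signal of 21.9, 14.5 and 40.9 in control 1, 2 and 3, and of 33.8 and 28.7 in 4xIOP 1 and 2. It was not called in 4xIOP 3, which had a peak 3.36 kb from the start instead (chr4:119111915-119112230, signal 15.2). The intron was therefore marked in 6 of 6 lists, and in 4xIOP 1 and 2 above 2 of the 3 control lists. The windows around the summit of each of these regions on GRCm38 (+ strand) are shown because they mark the part of the gene that was called in both groups. The first, at 4 kb, holds 0 copies of the HIF core. The second, at 3 kb, holds 3 (in capitals as above), 2 of them from 1 E-box.
Slc2a1 intron 4 kb, chr4:119112628-119112927 (+ strand): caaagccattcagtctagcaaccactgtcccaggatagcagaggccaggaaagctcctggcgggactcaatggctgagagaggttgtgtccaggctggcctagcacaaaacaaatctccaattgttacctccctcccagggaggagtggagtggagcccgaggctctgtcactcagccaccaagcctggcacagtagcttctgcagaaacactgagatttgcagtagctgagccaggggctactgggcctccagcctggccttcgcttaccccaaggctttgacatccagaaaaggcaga
Slc2a1 intron 3 kb, chr4:119111944-119112243 (+ strand): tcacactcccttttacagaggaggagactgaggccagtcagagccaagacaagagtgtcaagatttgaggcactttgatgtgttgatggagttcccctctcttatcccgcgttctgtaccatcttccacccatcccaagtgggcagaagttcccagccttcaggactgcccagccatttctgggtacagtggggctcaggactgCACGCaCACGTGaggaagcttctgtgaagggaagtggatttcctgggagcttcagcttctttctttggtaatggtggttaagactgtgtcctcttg

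In control lists the background of the promoter peak was 0.948 to 0.985 times that of the peak at 4 kb. With the background of the intronic peak, a promoter summit in 4xIOP would have been called from a signal of 20.4 (41 fragments) in 4xIOP 1, 18.8 (40 fragments) in 4xIOP 2 and 11.7 (30 fragments) in 4xIOP 3. These limits hold for a summit at least as wide as the shortest peak of the list. In control, the promoter signal was 1.08, 1.65 and 1.24 times that at 4 kb. In 4xIOP 1 and 2 the limit was 0.603 and 0.656 times the signal at 4 kb. In 4xIOP 3 it was 0.769 times the signal of the peak at 3 kb. That peak had a signal of 12.7 in control 2 and 33.2 in control 3, where the promoter had 24.0 and 50.6. Because the limit was taken from the background of a called intronic peak, it lies below that peak by construction. In control 1 the summits held 52 and 48 fragments, a difference within counting error. These values are a description, for which no test was made. The 4xIOP lists give no promoter value, so whether the signal was lower there is not known. In 4xIOP 1 a signal below 20.4 would not be called, beside 23.7 and 24.0 in control 1 and 2. If it was lower, fewer cells with the mark and less of the mark per cell cannot be told apart in a whole retina.

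**Figure D3:**
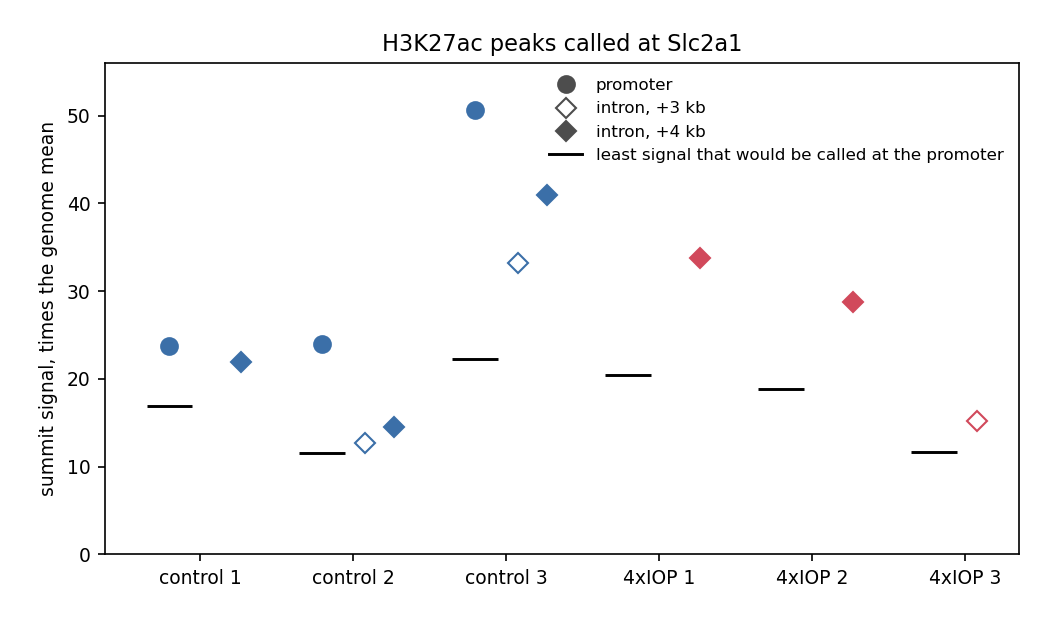
Summit signal of the peaks called at Slc2a1 in each list, as a multiple of the genome mean. Circles are the promoter, diamonds the intronic peaks at 3 kb (open) and 4 kb (filled), blue is control and red 4xIOP, and black bars give the least promoter signal that would have been called. Control promoters sit between 23.7 and 50.6, above their bars, whereas the 4xIOP lists show intronic peaks of 15.2 to 33.8 and no promoter peak.

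The loci of the 10 genes held 52 of the 39942 regions obtained by merging the lists. Of these, 18 were at a promoter of the member itself, 10 at a promoter of another gene and 24 were distal, with no TSS within 2.5 kb. In all 6 lists 17 were called (32.7%, against 26.4% of all regions), and 16 in 1 list, 11 of which were in control 3. The control lists called 28, 26 and 47 of the regions and the 4xIOP lists 27, 30 and 21. As shares these were 53.8%, 50% and 90.4% in control and 51.9%, 57.7% and 40.4% in 4xIOP, beside 50.1%, 44.8% and 89.1% and 46.6%, 47.9% and 36.4% of all regions, with control 3 the highest list and 4xIOP 3 the lowest in both. The means were 33.7 ± 11.6 and 26 ± 4.58 (SD, n = 3). The difference of -7.67 became -1 without control 3 and -0.667 with equal numbers of the strongest peaks per list. The Slc2a1 promoter was the only region called in every control list but never in 4xIOP (background 1.05% of all regions), and 0 had the opposite pattern (background 0.015%).

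**Figure D4:**
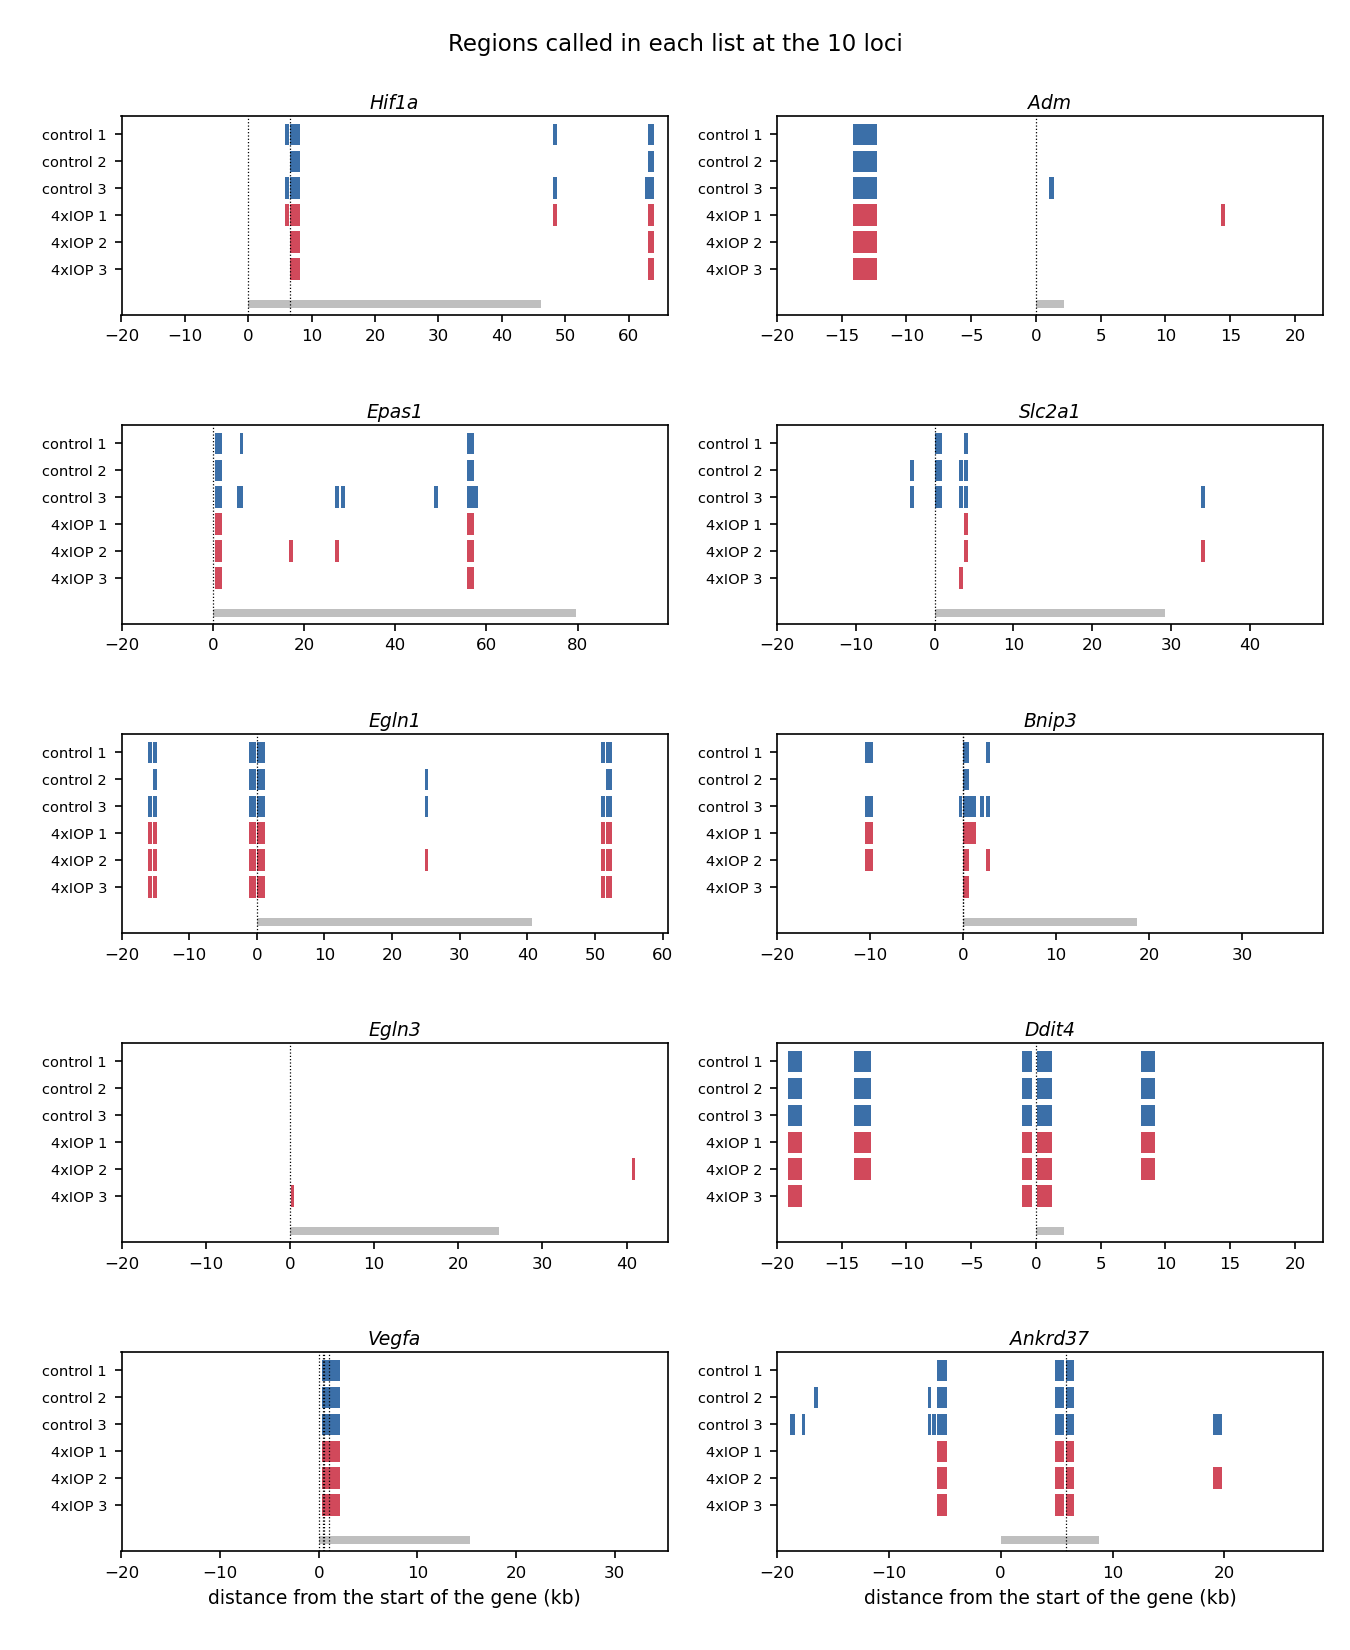
Regions called in each list (rows, control in blue, 4xIOP in red) at the 10 loci, by distance from the start of the gene in kb, in the direction of transcription. Each called region is drawn at its full merged width, the shortest ones widened to be visible, the grey bar is the gene and dotted lines are annotated TSS. Ddit4 and Egln1 have distal regions in both groups, and Egln3 has no region in a control list.

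Distal regions called in all 6 lists were found at Epas1, Egln1 and Ddit4. That of Epas1 (chr17:86809456-86811011) overlaps an exon 56.5 kb from the start. Its signal was 27.4, 13.6 and 36.9 in control and 26.4, 26.4 and 16.8 in 4xIOP. That of Ddit4 (chr10:59969859-59970993) lies 18.6 kb upstream of the gene, between genes. Its signal was 29.7, 19.8 and 42.1 in control and 33.8, 28.3 and 16.4 in 4xIOP. Both regions overlapped between the groups, and at Epas1 the distal region had a higher signal than the promoter in 5 of 6 lists. That of Egln1 (chr8:124964068-124964677) lies 15.0 kb upstream. It had the smallest p of the members' regions that were higher in 4xIOP. Its signal was 19.2, 6.51 and 18.6 in control and 21.4, 19.3 and 10.5 in 4xIOP, so that control 2 was the low list and the groups overlapped. The score difference was 0.751 ± 0.418 (SE, limma, adjusted p = 0.9999 over 10529 regions). Without control 2 it was 0.288, and without control 1 it was 1.29.

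The 300 bases around the summits of the Egln1 and Ddit4 regions on GRCm38 (+ strand) are shown because these are the distal regions between genes that every list called. The Egln1 window holds 1 copy of the core (in capitals) and the Ddit4 window 0. A core was present in 36.8% of 1805 such windows at distal regions called in all lists.
Egln1 distal, chr8:124964222-124964521 (+ strand): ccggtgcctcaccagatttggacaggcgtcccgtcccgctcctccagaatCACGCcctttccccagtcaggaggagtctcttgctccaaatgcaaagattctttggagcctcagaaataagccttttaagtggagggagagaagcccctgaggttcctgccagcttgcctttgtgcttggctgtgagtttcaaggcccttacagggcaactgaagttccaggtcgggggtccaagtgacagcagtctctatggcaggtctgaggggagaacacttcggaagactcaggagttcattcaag
Ddit4 distal, chr10:59969898-59970197 (+ strand): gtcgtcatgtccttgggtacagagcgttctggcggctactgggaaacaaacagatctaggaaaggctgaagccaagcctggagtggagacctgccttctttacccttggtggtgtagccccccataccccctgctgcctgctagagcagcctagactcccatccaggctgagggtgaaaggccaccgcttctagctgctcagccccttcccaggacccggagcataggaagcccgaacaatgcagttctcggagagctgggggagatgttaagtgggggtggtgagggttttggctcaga

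The smallest p of a region lower in 4xIOP was also at Egln1. This region (chr8:124948098-124949303) covers most of the first exon and the start of the first intron. Its signal was 27.4, 16.9 and 40.5 in control and 17.9, 20.3 and 13.2 in 4xIOP. By signal the groups overlapped, while by fold every 4xIOP list ranked below every control list (6.73 to 15.5 against 36.4 to 49.7 in percentiles), as in 4.05% of all regions (4.31% had every 4xIOP list above). The score difference was -0.61 ± 0.303 (SE, limma, adjusted p = 0.9999). The neighbouring region upstream of the start (chr8:124949438-124950496), which holds the highest promoter summit, differed by 0.0122 ± 0.305. Among the members' regions, limma called 0 higher and 0 lower, as it did among all 10529 regions (158 higher and 176 lower, or 1.5% and 1.67%, at an unadjusted p under 0.05, with 0 at the adjusted threshold).

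The remaining loci had no distal region called in all 6 lists. At Slc2a1 the one called most often was the intronic region described above (5 lists), and at Bnip3 a region 10.1 kb upstream (chr7:138919187-138920067) was called in 4 lists, in control 1 and 3 and 4xIOP 1 and 2, with a signal of 6.08 to 8.45. At Ankrd37 a region 13.5 kb downstream of the start (chr8:45985921-45986756) was called in control 3 and 4xIOP 2, within the gene Ufsp2. Egln3 had a weak one in 4xIOP 2 (signal 6.60) and Adm in 4xIOP 1 (5.97). Hif1a and Vegfa had no distal region. The Adm locus had a region in all 6 lists, but at the start of its neighbour Sbf2.

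Another 41 genes of the pathway were examined in the same way. Of these, 22 (53.7%) had a promoter peak in all 6 lists and 34 (82.9%) in at least 1, beside 39.5% and 57.6% of all protein-coding genes. Genes of oxygen sensing were marked most often, 6 of 7 in all lists. Of the VEGF ligands and receptors, 1 of 8 was marked in all lists (Vegfb, a VEGF ligand), and the receptor genes Flt1 and Flt4 were marked in none. Of the hypoxia-induced genes 15 of 26 were marked in all lists. Of the 22 tested promoters, limma called 0 higher and 0 lower. The score was higher in 4xIOP for 11 and lower for 11, with a median difference of 0.0046 beside 0.00492 over all promoters, and 2 had an unadjusted p under 0.05, both lower (1.64% of all promoters were lower at that p and 1.48% higher). These were Epo and Arnt.

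Epo encodes erythropoietin. Its promoter signal was 29.7, 21.002 and 16.2 in control and 8.95, 6.60 and 14.4 in 4xIOP. The 4xIOP lists were thus lower throughout on this scale, as in 87 of all 8669 promoters (3 were higher throughout). By rank of fold the groups overlapped. The score difference was -1.15 ± 0.484 (SE, limma, adjusted p = 0.9996). A start of Gnb2 lies 11 bp from that of Epo on the same strand, and the 2 promoters cannot be told apart. Arnt encodes the beta subunit with which HIF alpha pairs. The promoter of Arnt had a signal of 17.8, 13.6 and 35.2 in control and of 13.4, 14.6 and 11.3 in 4xIOP, and its score differed by -0.856 ± 0.383 (SE, limma, adjusted p = 0.9996). By rank of fold every 4xIOP list was below every control list at Arnt, as at Bnip3l, which encodes a mitophagy receptor, and Pfkfb3, which encodes an activator of glycolysis. These 3 of the 22 promoters stand beside 3.93% of all promoters, and the last 2 genes are named after their values were seen. The largest rises were small: 0.282 ± 0.382 for Higd1a, which encodes a mitochondrial protein, and 0.238 ± 0.391 for Cited2, which encodes an inhibitor of HIF, and neither passed the test. No gene of the 41 had a promoter peak that was present throughout 1 group and absent from the other.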

How the data were processed

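H3K27ac ChIP-seq peak lists of 3 control and 3 4xIOP retinas were analysed, each deposited in narrowPeak layout and called for that sample alone. The submitters' processing notes name mm10, STAR 2.7.8a, MACS2, HOMER, edgeR and bedtools 2.29.2 without roles, and 0 peaks ended past a chromosome of GRCm38, so GENCODE vM21 basic (21938 protein-coding genes) was used. The fold of each peak is the authors' ratio of the pile-up at the summit to a local background. The −log10 p and −log10 q were computed for the same pile-up by the authors' caller, and the lowest −log10 q was 1.31 to 1.40. The integer score deposited with each peak was not used.

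The 10 genes, the pathway list and the markers were chosen with earlier results of these data known. Fragments and background were solved from fold and p under the Poisson model of the caller. Whole fragments returned the deposited p within 0.001 for at least 99.99% of peaks. The smallest background within a list served as its genome mean. Lists of peaks give no total read count, so the depth is known only as this background, and fragments carry counting error. Overlapping peaks of the 6 lists were merged into regions. Promoters were 2.5 kb on either side of any TSS, called with at least 1 bp of overlap. Percentiles were taken among the marked promoters, or the peaks, of the same list. The highest fold in each promoter (8669) or region (10529) marked in all lists was ranked within its list, turned into normal scores and tested with limma 3.58.1 (Benjamini-Hochberg, 0.05), without a replicate term. The fit was tested on simulated data with 200 changed features. It recovered 0% of them at a change of 1 score unit. At 2 units it recovered 67% for regions and 69% for promoters, and at 3 units 95.5% and 94.5%. Nothing in the labels says whether the replicates are separate animals, so p-values measure the spread between these samples.

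Named were all 10 genes, the distal region called most often at each locus, every region called throughout 1 group only, the members' regions with the smallest p in each direction, and the 2 pathway genes with the smallest p in each direction. Alternatives were the summit signal, a −log10 q of at least 5, the top 16195 peaks of each list, promoters of 1 kb, 200 bp of overlap, loci with no flank or 50 kb, leaving lists out, a replicate block, the fragment-length class (shortest peak above or below 200 bp) and, added after seeing the data, ranks of summit fragments. Sequences came from the RefSeq promoter table and the genome (GRCm38.p6).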

Additional observations from a re-analysis of the deposited data

How the results depend on the processing

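The limits are the peak lists themselves: a promoter without a call has no value, control 3 holds the most peaks, 4 lists carry the name of the other group, and 3 lists against 3 cannot give an exact p under 0.1. With limma, 0 promoters and 0 regions were called in either direction under each alternative. No member passed the test under any of them, and the smallest adjusted p of a member's score was 0.804. The Slc2a1 promoter was called in 3 control lists and 0 4xIOP lists under each threshold, promoter width and overlap tried (leaving out lists cannot change this), though not with lists grouped by the names they carry (1 of 3 against 2 of 3). The number of members with a marked promoter was lower in 4xIOP by 0.5 to 1.33 under each alternative, and the share of all protein-coding genes with one was also lower on average (44.6% to 47.4% against 46.2% to 56.9%). The direction for the members holds only for the groups as labelled. By the names that the lists carry, Slc2a1 turns it around, as Egln3 (0 and 1 lists) and Adm (1 and 0) offset each other.

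The direction of the small score differences was not stable, and the cause was not tested. By log2 summit signal, minus the median over all promoters, it was -0.034 for Hif1a, -0.056 for Epas1, -0.172 for Egln1, -0.233 for Bnip3 and -0.041 for Ankrd37. By ranks of summit fragments, it was -0.0671 for Hif1a, -0.0572 for Epas1, -0.335 for Egln1, -0.432 for Bnip3 and -0.115 for Ankrd37, and with the fragment-length class as a covariate, in the same order, -0.0456, -0.28, -0.485, -0.546 and -0.251. With that covariate on ranks of fold, it was -0.204 for Epas1 and -0.0978 for Egln1. At a −log10 q of at least 5 it was -0.00705 for Egln1. Between control 3 and 4xIOP 3 alone it was 1.399 for Hif1a, -0.448 for Epas1, -0.126 for Egln1, 0.17 for Vegfa, -0.0174 for Bnip3, 0.388 for Ddit4 and 0.472 for Ankrd37.

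With each list left out in turn, the score difference ranged from 0.0894 (without 4xIOP 3) to 0.622 (without 4xIOP 1) for Hif1a, 0.0036 (without control 1) to 0.144 for Bnip3, -0.266 to 0.498 for Epas1, -0.179 to 0.211 for Egln1, -0.338 to 0.162 for Vegfa, -0.357 to 0.196 for Ddit4 and -0.211 to 0.478 for Ankrd37. The difference in locus regions called was -26 between control 3 and 4xIOP 3 alone, 0.5 within the long fragment-length class and -15.5 within the short one, -0.667 with equal numbers of the strongest peaks per list, and -11.5 to -1 with each list left out.

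The labels do not say whether same-numbered samples are eyes of the same animal. Their deviations from the group means had correlations of -0.021, -0.057 and -0.146 over regions, which does not settle it, and they were treated as unpaired. With the replicate number as a block (replicate block), limma called 0 promoters and 0 regions. In this balanced design the block cannot move a score difference (0.354 for Hif1a in either fit), so it bears on the SE only, 0.429 against 0.397 for Hif1a.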
